A study of Mus musculus with 6 samples.

Results

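Naaa and 9 other genes that make, sense or break down endocannabinoids were followed in bulk RNA from mouse prefrontal cortex. Members were taken by gene symbol: Napepld, Dagla and Daglb for synthesis, Cnr1 and Cnr2 as receptors, and Naaa, Faah, Mgll, Abhd6 and Abhd12 for breakdown. These are 10 of 54429 gene rows, and all 10 passed the filter on low counts that left 24419 genes to test. Naaa was chosen because it was lower with the hairpin in these same libraries, so its difference is given as a description with no test. The other 9 came in as genes of the same pathway.

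AAV9, a viral vector that reaches neurons well, had been injected with one of a pair of cargoes: a green fluorescent protein gene (GFP), or a hairpin (shRNA) that targets the transcript of Kmt5b, which encodes a methyltransferase for histone H4. There were 3 libraries of each kind, made from lysate of the whole tissue of mice aged 6 to 8 weeks. The sources differ on the animals: C57BL6/J stands in the labels of all 6 libraries, but the design text has a C57BL/6 x C3H cross and names 2 control mice, and the extraction protocol speaks of duplicates. Some GFP libraries may therefore come from 1 mouse, in which case the p-values here reflect the variation among libraries and not among animals. The promoter that drives the hairpin and the share of cells that received virus are not given in the sources used here.

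Endocannabinoids are lipid messengers that neurons make on demand from membrane phospholipids and release backwards across the synapse, where they act on the cannabinoid receptor CB1 of the incoming axon and lower transmitter release. The main ones are anandamide, an N-acylethanolamine, and 2-arachidonoylglycerol (2-AG), a monoacylglycerol. Each has its own enzymes, and N-acylethanolamines that do not bind cannabinoid receptors, such as palmitoylethanolamide, share the enzymes of anandamide. Naaa encodes N-acylethanolamine acid amidase, a lysosomal hydrolase that prefers palmitoylethanolamide and is known mainly from macrophages and other immune cells.

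Total counts ranged from 29490771 to 74723284 per library. Levels are given as CPM, the usual unit of counts relative to library size, here with the TMM scaling of edgeR. Kmt5b was at 86.5, 79.7 and 80.9 CPM with GFP and at 68.5, 80.3 and 63.9 CPM in libraries labelled as hairpin, a log2 fold change of -0.22 ± 0.10 (SE, n = 3 each) that did not pass (edgeR adjusted p = 0.303). One of them, labelled Kmt5b shRNA replicate 2, lay within the GFP range, so directions rest on the labels and the treated group is called the hairpin-labelled libraries. The groups also differed in a feature of counting, since 2.75, 3.03 and 3.29 genes had 2 counts for each gene with 1 count in the GFP libraries, against 2.06, 2.19 and 2.28 in the hairpin-labelled ones. The part of this in the results below was not tested.

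Naaa lies on chromosome 5 from 92257659 to 92278170 on the minus strand (mm10), with 11 exon blocks and 3721 bases of exon in GENCODE M21. Its representative transcript had no match of 100 bases or more at 90% identity to another protein-coding gene or a pseudogene, and no exon of another annotated gene overlapped its exons. The 250 bases before its RefSeq start, at chr5:92278182-92278431 on the minus strand of GRCm38.p6, are shown because Naaa had the largest difference among the well-expressed members. Capitals mark the reverse complement of the GC box GGGCGG, the kind of site that Sp1-type factors bind.
Naaa: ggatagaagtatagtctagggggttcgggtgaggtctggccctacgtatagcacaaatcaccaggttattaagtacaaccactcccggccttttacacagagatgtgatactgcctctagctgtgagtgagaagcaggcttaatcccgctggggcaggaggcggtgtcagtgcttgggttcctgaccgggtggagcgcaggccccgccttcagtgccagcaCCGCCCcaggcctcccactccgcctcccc
The GC box began 29 bases before the start, and 32.7% of 32851 RefSeq promoter windows of this length held one on either strand. CACGTG, the core of the element found in many lysosomal genes, was not in this window and was in 6.02% of all windows. TATAAA was also absent, against 12.4% of windows, as was CCAAT, against 33.8%. The GC content was 59.2%, with a median of 52.4% over all windows.

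GFP libraries held 1552, 812 and 2088 Naaa reads, and hairpin-labelled libraries 812, 769 and 653. Scaled to library size, this was 23.2, 26.4 and 26.7 CPM against 14.3, 16.5 and 11.9 CPM. Every hairpin-labelled library was below every GFP library, and the gap between the groups was wider than the range within either. The mean was 25.4 ± 1.94 CPM in GFP and 14.2 ± 2.32 CPM in the hairpin-labelled libraries (SD, n = 3 each). The log2 fold change was -0.84 ± 0.13 (SE), or 44.0% less, with a 95% interval from 53.7% to 32.3% less. With any library left out, the log2 fold change lay between -0.96 and -0.71. In bulk tissue, fewer cells that express Naaa and less Naaa RNA per cell cannot be told apart.

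**Figure D1:**
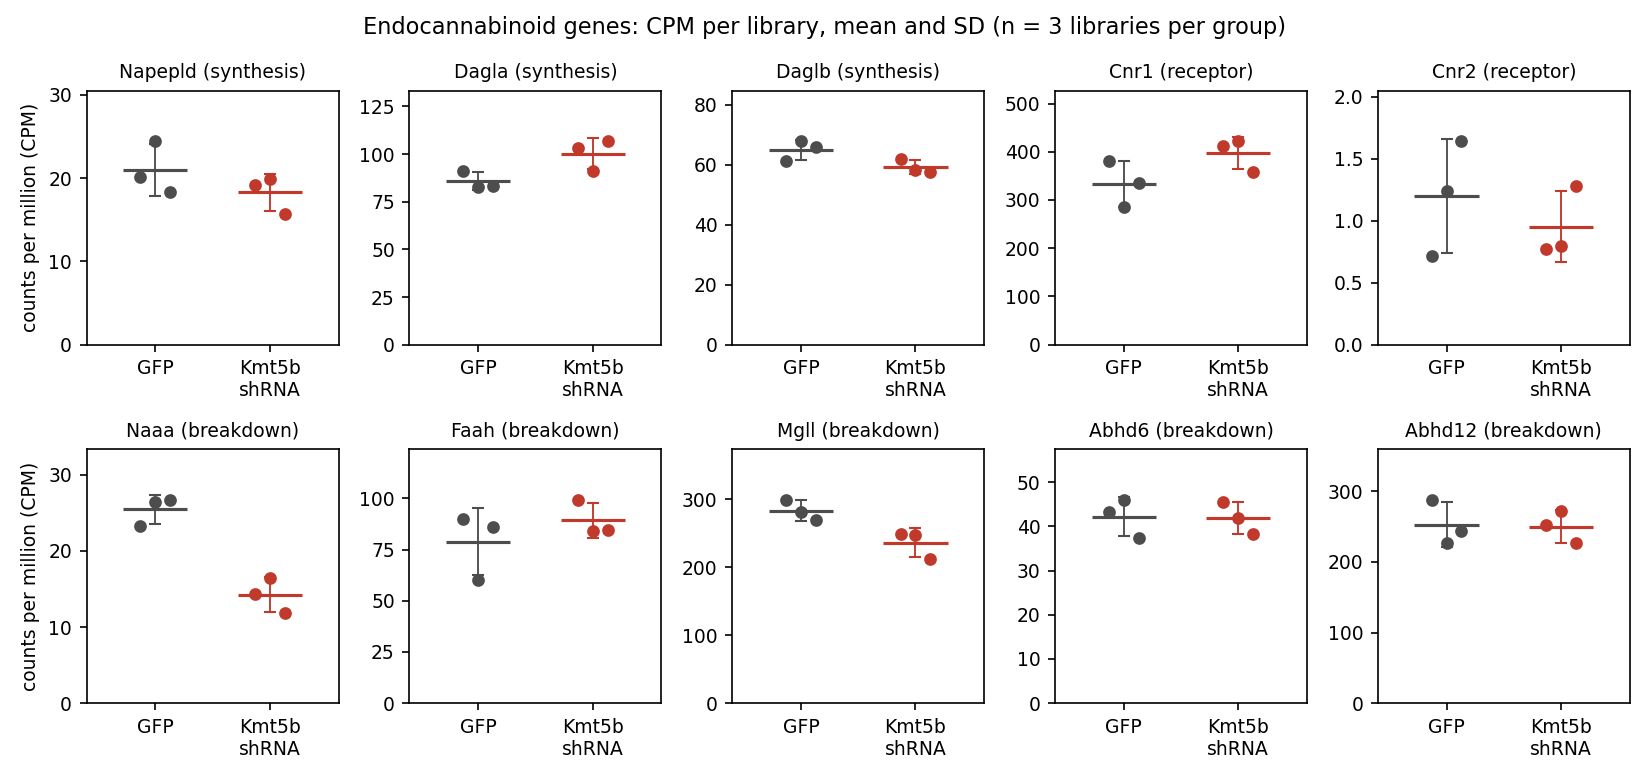
CPM of each gene per library (points), with the group mean (line) and SD (bars), n = 3 libraries per group and each vertical axis starting at 0. Relative to its own level, Naaa is the member with the widest gap, with 23.2 to 26.7 CPM in GFP and 11.9 to 16.5 CPM in the hairpin-labelled libraries. The groups overlap for Napepld, Daglb, Cnr1, Cnr2, Faah, Abhd6 and Abhd12.

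Of the other 9 members, 0 passed at an edgeR adjusted p under 0.05, where 8.46% of all genes tested passed, and 4.15% of 15778 genes in a fit of protein-coding genes only, the kind that all members are. At an unadjusted p under 0.05 there were 2, Mgll and Dagla, against 17.4% of all genes. In the protein-coding fit there were 3, with Cnr1 added, against 16.7%, and 0 passed after adjustment. DESeq2 called 0 of the 9 (7.83% of its genes passed) and limma called 0 (8.47%). The CPM of the groups did not overlap for Mgll, which was lower, and Dagla, which was higher, against 22.5% of all genes tested (12.7% lower and 9.84% higher) and 20.9% of the protein-coding ones. With 9 members, 2 not overlapping is near these shares. Of the 9, 3 had a log2 fold change above 0 and 6 below, with a median of -0.02, the same as the median of -0.02 over all genes tested.

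Synthesis genes came first in the pathway. Napepld encodes the phospholipase D that releases anandamide and its relatives from N-acylated phosphatidylethanolamine. It was at 20.1, 24.4 and 18.3 CPM in GFP and 19.2, 19.9 and 15.7 CPM in the hairpin-labelled libraries, so the groups overlapped (log2 fold change -0.19 ± 0.13, edgeR adjusted p = 0.549). Its 95% interval ran from 27.8% less to 6.61% more.

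Dagla and Daglb encode the diacylglycerol lipases alpha and beta, which make 2-AG. The alpha enzyme supplies most 2-AG for synapses of the adult brain, while the beta enzyme is prominent in microglia and macrophages. Dagla was at 91.1, 82.6 and 83.5 CPM in GFP and 103.0, 91.2 and 106.7 CPM in the hairpin-labelled libraries. The lowest hairpin-labelled library was only just above the highest GFP library, and the log2 fold change of 0.23 ± 0.10 did not pass (edgeR adjusted p = 0.232, unadjusted p = 0.0358). The interval ran from 1.2% to 35.2% more. Daglb was at 61.1, 67.8 and 65.9 CPM against 61.9, 58.1 and 57.5 CPM, with groups that overlapped in 1 library each (log2 fold change -0.13 ± 0.09, edgeR adjusted p = 0.554). In the annotation, 2309 bases of Daglb exon, 24.1% of its length, lie opposite Rac1, an abundant gene on the other strand. The counting settings are not given in the sources used here, so reads from the shared stretch may have been lost or assigned to either gene.

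Cnr1 encodes CB1, the cannabinoid receptor of axon terminals, which is densest in the cortex on interneurons that make cholecystokinin. Cnr1 was at 380.7, 285.4 and 336.2 CPM in GFP and 411.2, 421.6 and 358.8 CPM in the hairpin-labelled libraries. The hairpin-labelled library with the least Cnr1 was below the GFP library with the most, and the log2 fold change of 0.25 ± 0.12 did not pass (edgeR adjusted p = 0.295), with an interval from 0.162% less to 41.5% more. Without GFP replicate 1 the adjusted p was 0.0691, and without GFP replicate 2 it was 0.639. A list of 5 markers of cholecystokinin interneurons summed to 334.5 to 386.6 CPM in GFP and 351.5 to 441.1 CPM in the hairpin-labelled libraries, with 0 of 5 called.

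Cnr2 encodes CB2, the cannabinoid receptor of immune cells, and was near the bottom of detection. Its counts were 48, 38 and 128 in GFP and 44, 37 and 70 in the hairpin-labelled libraries, or 0.718, 1.24 and 1.64 CPM against 0.773, 0.796 and 1.28 CPM. GFP replicate 3 had the most, and its level decided the difference: the log2 fold change was -0.33 ± 0.36 (edgeR adjusted p = 0.744) and -0.01 without that library. With all libraries the 95% interval ran from 53.5% less to 35.3% more, so a change within it could not be told from none. Cnr2 also has a match of 181 bases to Pclaf.

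Faah, beside Naaa the other hydrolase of N-acylethanolamines, is the membrane enzyme that ends anandamide signalling in neurons. It was at 90.1, 60.0 and 86.1 CPM in GFP and 99.3, 84.0 and 84.7 CPM in the hairpin-labelled libraries. GFP replicate 2 was the low library. With all libraries the log2 fold change was 0.18 ± 0.14 (edgeR adjusted p = 0.605), and it was 0.03 without GFP replicate 2.

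Mgll encodes monoacylglycerol lipase, which breaks down most 2-AG in the brain and is found in axon terminals and in astrocytes. It was at 299.3, 281.6 and 269.6 CPM in GFP and 249.4, 247.5 and 212.2 CPM in the hairpin-labelled libraries. All hairpin-labelled libraries were below all GFP libraries, yet the log2 fold change of -0.26 ± 0.10 did not pass (edgeR adjusted p = 0.164, unadjusted p = 0.0213). The interval ran from 28.3% to 3.08% less. Scaled by total counts alone, the Mgll adjusted p from edgeR was 0.0273, the only one of the 16 alternatives under which it passed.

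Abhd6 and Abhd12 encode serine hydrolases that take a smaller part in 2-AG breakdown, Abhd6 at the inner face of the postsynaptic membrane, while Abhd12 also breaks down lysophosphatidylserine. Abhd6 was at 43.2, 46.0 and 37.3 CPM in GFP and 45.4, 42.0 and 38.2 CPM in the hairpin-labelled libraries (log2 fold change -0.01 ± 0.11, edgeR adjusted p = 0.984). Its 95% interval spanned 15.4% less to 16.6% more. Abhd6 shares 623 bases at 96.1% identity with the processed pseudogene Gm1833, which had 0 to 20 counts per library. Abhd12 was at 287.8, 226.2 and 244.2 CPM against 251.9, 271.7 and 226.4 CPM (log2 fold change -0.02 ± 0.11, edgeR adjusted p = 0.973), with an interval from 16.3% less to 16.9% more. Both genes thus had ranges that overlapped almost in full.

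**Figure D2:**
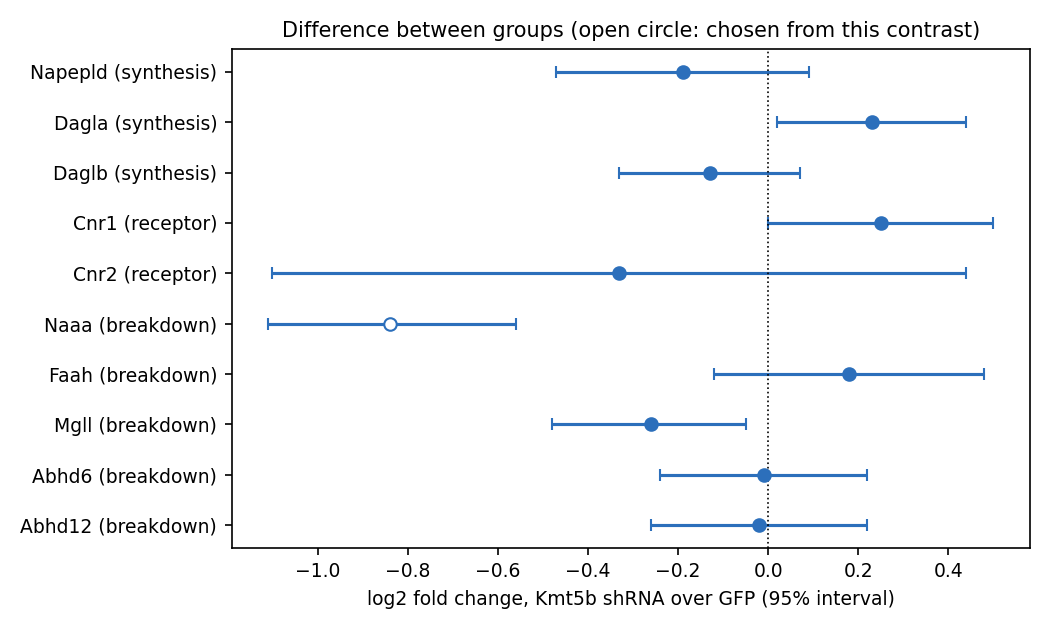
Log2 fold change of the hairpin-labelled over the GFP libraries with its 95% interval, from the edgeR fit of 24419 genes. Naaa, at -0.84, is drawn open because it was chosen from this contrast, so its interval is a description and no test. Among the other members, the intervals of Mgll (-0.48 to -0.05) and Dagla (0.02 to 0.44) lie to one side of 0 before adjustment for multiple tests.

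Levels were also divided by kilobases of exon, to set genes of different length side by side. The length was that of all annotated exons of a gene, which can exceed the length of the transcript in use. The order between genes is therefore approximate. By this measure Abhd12 was the highest member in the GFP libraries at 89.5 ± 11.2 CPM per kilobase (SD, n = 3). Mgll (53.1 to 58.9) and Cnr1 (44.3 to 59.1) followed with overlapping ranges. Abhd6 (15.8 to 19.4) and Dagla (14.4 to 15.9) overlapped at their edges and lay above Faah (7.65 to 11.5 CPM per kilobase). Naaa (6.24 to 7.17) and Daglb (6.38 to 7.08) could not be ordered, Napepld (4.62 to 6.17) was just below both, and Cnr2 was lowest at 0.18 to 0.411 CPM per kilobase. In the hairpin-labelled libraries Naaa was at 3.2 to 4.45 CPM per kilobase, below every Daglb value (6.01 to 6.47) and overlapping Napepld (3.97 to 5.04). Cnr1 (55.7 to 65.4) there lay above Mgll (41.8 to 49.1 CPM per kilobase). The per-length level of Daglb carries the limit given for its overlap with Rac1.

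**Figure D3:**
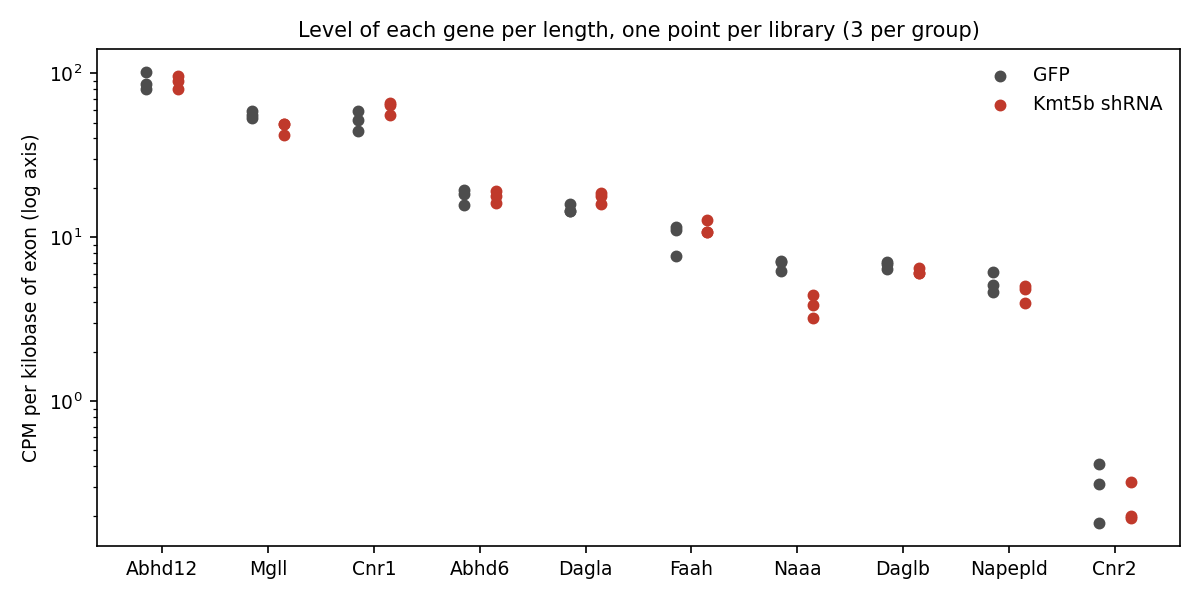
CPM per kilobase of all annotated exon on a log axis, 1 point per library with 3 per group, members ordered by their GFP mean. Levels run from about 0.3 for Cnr2 to near 90 for Abhd12, and Naaa is the gene whose points move from the level of Daglb to below it.

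Ratios between genes of the same library do not depend on library scaling. Of 8 such ratios, chosen after the values were seen and given with no test, the one of Dagla to Mgll, a 2-AG synthesis gene to the main 2-AG breakdown gene, was the tightest in GFP. On counts per kilobase it was 0.269, 0.259 and 0.274 in GFP and 0.365, 0.325 and 0.444 in the hairpin-labelled libraries. The Cnr1 to Mgll ratio was 0.928 ± 0.112 in GFP and 1.32 ± 0.0227 in the hairpin-labelled libraries (SD, n = 3 each), and the Dagla to Daglb ratio 2.21 ± 0.243 against 2.82 ± 0.241 (SD, n = 3 each), the latter with the limit given for Daglb. The groups did not overlap in any of these. For Dagla to Mgll this follows from the genes themselves, since every hairpin-labelled library had more Dagla and less Mgll than every GFP library. The share of other gene pairs whose ratios do not overlap was not worked out, so this adds no support. The Naaa to Faah ratio, across the hydrolases of N-acylethanolamines, was 0.542, 0.928 and 0.653 against 0.302, 0.415 and 0.296. With 3 libraries a side, 0.1 is the smallest p that a two-sided exact permutation test can reach.

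**Figure D4:**
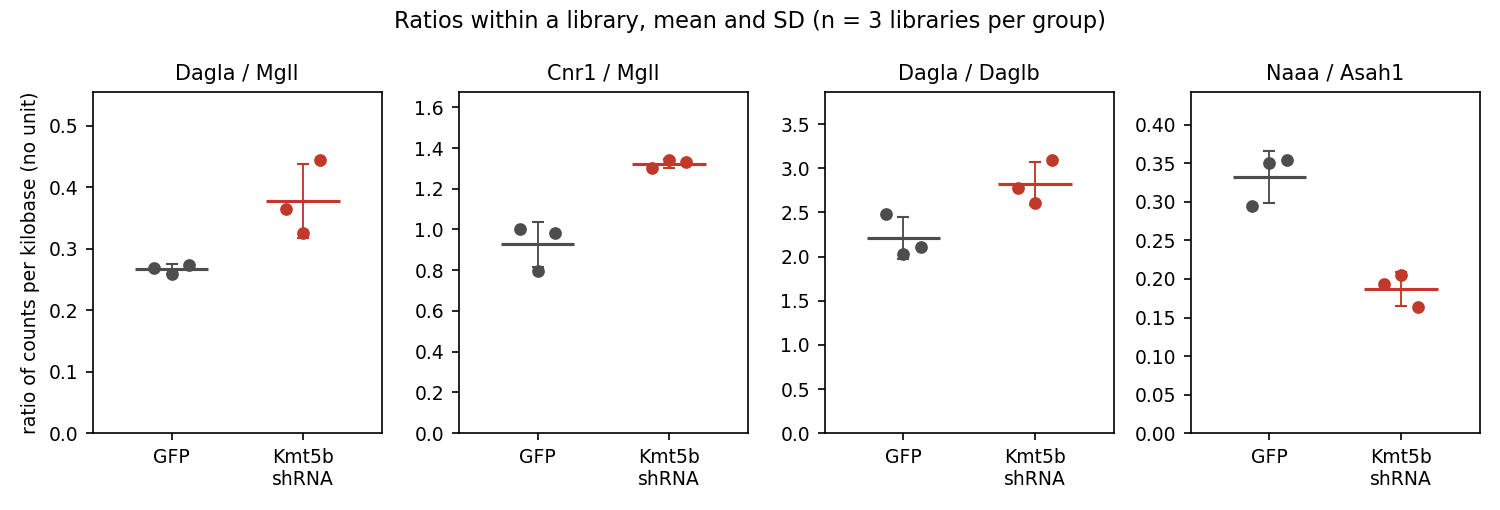
Ratios of counts per kilobase within each library (points), with group mean and SD, n = 3 libraries per group. Dagla to Mgll is 0.259 to 0.274 in GFP and 0.325 to 0.444 in the hairpin-labelled libraries, and Naaa to Asah1 0.294 to 0.354 against 0.163 to 0.205.

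Acid ceramidase, encoded by Asah1, is the closest relative of the Naaa enzyme and also works in the lysosome. Asah1 was at 71.9, 68.8 and 68.7 CPM in GFP and 67.0, 73.5 and 66.5 CPM in the hairpin-labelled libraries, with a log2 fold change of -0.02 ± 0.09 (edgeR adjusted p = 0.964) and an interval from 13.8% less to 13.3% more. The Naaa to Asah1 ratio per kilobase was 0.294, 0.350 and 0.354 in GFP and 0.194, 0.205 and 0.163 in the hairpin-labelled libraries. Psap, the precursor of the saposins that assist lysosomal lipid hydrolases, had a log2 fold change of 0.03 ± 0.12 (edgeR adjusted p = 0.938). Of 38 lysosomal genes in a pair of lists, 37 were tested. EdgeR called 0, with 2 at an unadjusted p under 0.05, while DESeq2 and limma each called 1, Sgsh. Sgsh was lower (log2 fold change -0.56 ± 0.17, edgeR adjusted p = 0.0552), and 21.6% of its exon length lies opposite Card14. Hexa, the other gene at an unadjusted p under 0.05, was higher (0.21 ± 0.09, edgeR adjusted p = 0.234). For comparison, DESeq2 called 7.83% of its genes and limma 8.47%. EdgeR called 8.46% of all genes tested and 4.15% in the protein-coding fit. The shares at an unadjusted p under 0.05 were 17.4% and 16.7%. The median log2 fold change of the lysosomal genes was -0.01.

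Over all 7 lists of other pathway genes, 78 of 83 were tested, 3 were higher and 1 was lower by edgeR. Of all genes tested, 2.77% were higher and 5.69% lower, but in the fit of protein-coding genes only it was 2.99% higher and 1.17% lower. The counts are thus near the protein-coding shares, and in that fit Fabp5, one of the higher genes, did not pass (edgeR adjusted p = 0.0833). The lower gene was Pla2g16, also called Plaat3, a phospholipase and acyltransferase of a family that can make the N-acylated precursors of anandamide. The lowest GFP library had 23.9 CPM of Pla2g16 and the highest hairpin-labelled one 19.7 CPM, a log2 fold change of -0.47 ± 0.10 (edgeR adjusted p = 0.00764). It was the 1 called gene of 9 tested for other routes of N-acylethanolamine synthesis, whose median was -0.13. Without Kmt5b shRNA replicate 1 its adjusted p was 0.0588.

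The higher genes were the carriers Fabp3, Fabp5 and Fabp7, fatty acid binding proteins that can ferry anandamide through the cytosol, from a list of 4 with a median log2 fold change of 0.91. Fabp7 was at 19.4, 19.1 and 22.6 CPM in GFP and 51.1, 50.4 and 55.7 CPM in the hairpin-labelled libraries (log2 fold change 1.36 ± 0.10, edgeR adjusted p = 1.35e-07). Fabp3 had 1.44 ± 0.10 (edgeR adjusted p = 6.29e-08) but shares 402 bases at 99.3% identity with the pseudogene Fabp3-ps1, so its own level is uncertain. Fabp5 had 0.46 ± 0.13 (edgeR adjusted p = 0.0404) and passed in 1 of 6 fits with a library left out. Its edgeR adjusted p was 0.144 when Kmt5b shRNA replicate 2 was the one left out. Genes that supply 2-AG precursors (12 tested), that oxidise endocannabinoids (5 tested) and that encode other receptors or CB1 partners (11 tested) had medians of -0.05, -0.13 and -0.05, with 0 called in each.

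Because counting can divide reads between near-identical copies, a separate fit kept only protein-coding genes without such a copy. There 1.31% of 13166 genes passed, and 9 of the 10 members were kept, Abhd6 being left out. Among the 8 of these other than Naaa, 0 passed, with adjusted p from 0.156 for Mgll to 0.936 for Abhd12. Pla2g16 and Fabp7 passed there (edgeR adjusted p = 0.0408 and 2.18e-05), and Fabp5 did not (0.116). Naaa had a log2 fold change of -0.85 in that fit.

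Markers of some cell types moved with the groups. The counts called in each list stand beside 2.77% higher and 5.69% lower over all genes tested. In the protein-coding fit these shares were 2.99% and 1.17%. Of 8 lymphocyte markers, 4 were lower by edgeR, namely the T cell gene Cd3g and the B cell genes Cd79a, Cd79b and Ms4a1. Cd79a shares 298 bases at 98.7% identity with the pseudogene Gm32220, so its own level is uncertain. Of the 8, 7 had log2 fold changes below 0. Trbc2, by far the most abundant, went the other way, at 20.7 ± 4.26 CPM in GFP and 27.3 ± 5.1 CPM in the hairpin-labelled libraries (SD, n = 3 each), and did not pass (log2 fold change 0.39 ± 0.16, edgeR adjusted p = 0.207). The 4 lower genes were scarce: Cd79b, at the highest level of the B cell genes, was at 0.807, 3.03 and 4.14 CPM in GFP and 0.369, 0.387 and 0.620 CPM in the hairpin-labelled libraries. The sum of all 8 was 25.9 to 38.7 CPM against 27.2 to 35.4 CPM, most of it from Trbc2, and no marker was at 0 in every library. GFP replicate 1 had the least Cd3g, Cd79a, Cd79b and Ms4a1 of the GFP libraries and also the least Naaa, at 23.2 CPM. For each of these genes it lay above every hairpin-labelled library. Among the hairpin-labelled libraries these genes did not go with Naaa. Kmt5b shRNA replicate 3 had the least Naaa there (11.9 CPM) but the most Cd3g (0.875 CPM), Cd79a (0.292 CPM), Cd79b (0.620 CPM) and Ms4a1 (0.182 CPM). The rest of the list was mixed. GFP replicate 1 also had the least Cd3e of the GFP libraries (0.239 CPM), but the most Cd8a (1.55 CPM) and the most Trbc2 (24.4 CPM). Nkg7 was lowest in GFP replicate 2 (0.651 CPM). The part of lymphocytes in the Naaa difference was not tested.

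Of 10 astrocyte markers, 3 were lower, the water channel gene Aqp4 and the gap junction genes Gja1 and Gjb6. Of the 10, 8 were below 0 and 2 above, namely Gfap (log2 fold change 0.39 ± 0.25, edgeR adjusted p = 0.545) and Sox9 (0.26 ± 0.15, edgeR adjusted p = 0.416). The astrocyte sum, most of it Slc1a2, was 4973.5 to 5109.0 CPM in GFP and 4249.4 to 4843.8 CPM in the hairpin-labelled libraries, and its part in the Naaa and Mgll values was not tested. Microglia markers, by contrast, had 0 of 10 called, a median of -0.02 and sums of 576.5 to 746.8 CPM against 597.1 to 804.4 CPM. Border macrophage and monocyte markers had 0 of 8 called and sums of 25.8 to 51.9 CPM against 26.1 to 30.3 CPM, with 4 genes above 0 and 4 below. Within that list, the monocyte gene Ly6c2 was at 3.12, 9.27 and 18.2 CPM in GFP and 1.23, 1.61 and 3.01 CPM in the hairpin-labelled libraries (log2 fold change -2.39 ± 0.80, edgeR adjusted p = 0.232). Ly6c2 shares 595 bases at 98.3% identity with Ly6c1, so its own level is uncertain. Ms4a7 had -1.01 ± 0.40 (edgeR adjusted p = 0.181). The border macrophage gene Cd163 had 0.68 ± 0.23 (edgeR adjusted p = 0.0917), with every hairpin-labelled library above every GFP library. The part of macrophages and monocytes in the Naaa difference was not tested. Excitatory neuron markers summed to 2725.2 to 3200.9 CPM and 3020.7 to 3310.3 CPM, with 0 of 8 called, so the defining neurons of the labelled tissue were present. Oligodendrocyte markers were below 0 in 10 of 10, with sums of 2929.2 to 4520.0 CPM and 1616.9 to 3415.6 CPM and 0 called. Single genes passed in 3 other lists. Pvalb of inhibitory neurons was lower (log2 fold change -0.58 ± 0.12, edgeR adjusted p = 0.00329), in a list with 2 above 0, 6 below and a median of -0.04. Olig2 of oligodendrocyte precursors was higher (0.54 ± 0.14, edgeR adjusted p = 0.0211), in a list with 4 above 0, 2 below and a median of 0.14. Pde10a of striatum was also higher (0.44 ± 0.10, edgeR adjusted p = 0.0104), but its list had 3 above 0, 5 below and a median of -0.08. The striatum sum, with Pde10a its largest part, was 184.2 to 199.4 CPM in GFP and 209.7 to 221.1 CPM in the hairpin-labelled libraries.

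The genes whose profile over the 6 libraries was nearest to that of Naaa were Cd38, Pbxip1, Sdc4, Aqp4 and C1ra. The measure was the root mean square distance between log2 CPM profiles centred on their means, over 12943 protein-coding genes of average log2 CPM of at least 1. It was 0.11, 0.12, 0.14, 0.15 and 0.15, against a median of 0.47. Cd38, an enzyme that consumes NAD, was at 5.04, 5.86 and 6.38 CPM in GFP and 3.65, 4.05 and 3.19 CPM in the hairpin-labelled libraries. Like Naaa, all 5 were lower in every hairpin-labelled library than in every GFP library, which follows from how they were picked. C1ra shares sequence with another gene or pseudogene, so its level is uncertain.

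Within 250 kb of Naaa, 15 other genes were tested, with a median log2 fold change of -0.10, 1 called higher and 0 called lower. The nearest, Ppef2, 1.38 kb away, was scarce, at 0.383 ± 0.128 CPM in GFP and 0.266 ± 0.115 CPM in the hairpin-labelled libraries (SD, n = 3 each). The next, Sdad1, a ribosome biogenesis gene 5.84 kb away, was at 29.7 ± 2.97 CPM and 27.7 ± 0.554 CPM (SD, n = 3 each; log2 fold change -0.10 ± 0.10, edgeR adjusted p = 0.734). The called gene was Cxcl10, an interferon-induced chemokine 68.5 kb away, which was higher, at 7.11 ± 1.21 CPM in GFP and 12.5 ± 3.42 CPM in the hairpin-labelled libraries (SD, n = 3 each; log2 fold change 0.81 ± 0.19, edgeR adjusted p = 0.0123). Cxcl9, which lies between Sdad1 and Cxcl10, had -0.97 ± 0.61 (edgeR adjusted p = 0.557), and the gene model Gm43040 had -0.96 ± 0.62 (edgeR adjusted p = 0.501). Further out, Scarb2, a lysosomal membrane protein gene, had 0.09 ± 0.11 (edgeR adjusted p = 0.755).

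**Figure D5:**
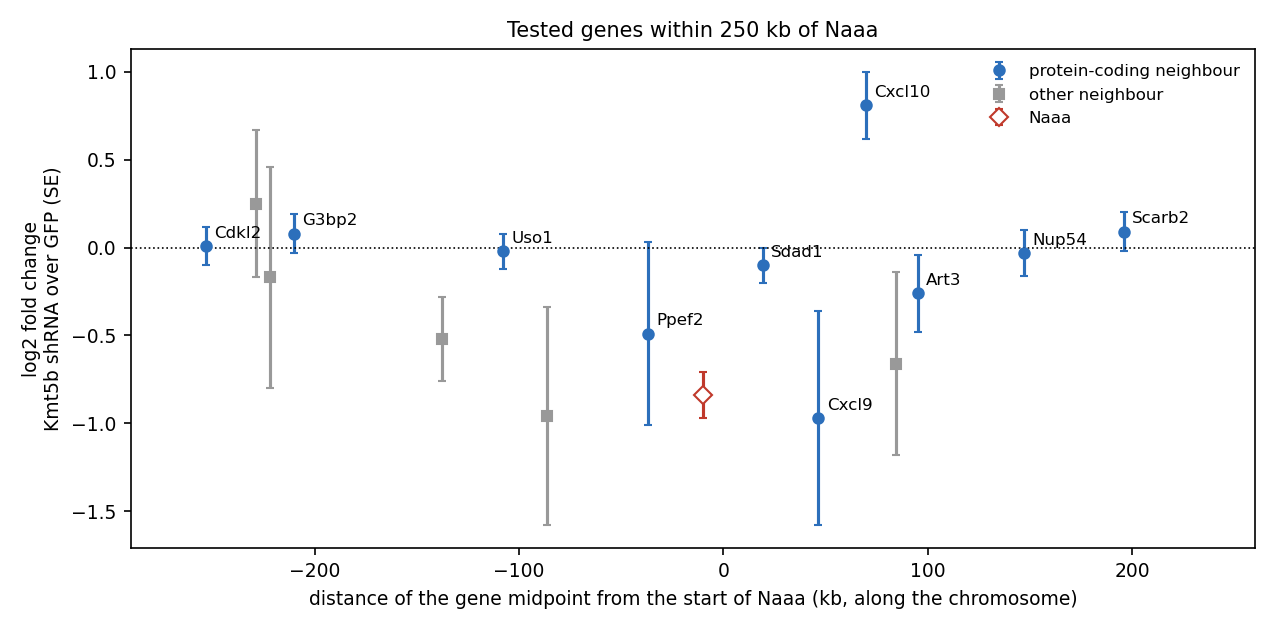
Log2 fold change with SE of the 15 tested genes within 250 kb of Naaa, against the distance of each gene's midpoint from the start of Naaa in kilobases. Naaa (open diamond, -0.84) lies below Sdad1 (-0.10) and Uso1 (-0.02) but above Cxcl9 (-0.97) and Gm43040 (-0.96), whose SE is wide, and Cxcl10 (0.81) is the one neighbour that passed the test.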

How the data were processed

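Counts of reads per gene symbol in prefrontal cortex RNA from 3 GFP and 3 Kmt5b shRNA libraries were used as deposited, raw and not normalized. Per the labels' protocols, ribosomal RNA was removed, stranded libraries were sequenced on an Illumina HiSeq, Cutadapt removed adapters and TopHat2 placed reads on RefSeq mRNAs. The submitters' processing notes name STAR, featureCounts, DESeq2 and mm10. Counting settings are not given in the sources used here.

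The test was that of edgeR 4.0.16 (R 4.3.3): filterByExpr, TMM scaling, robust quasi-likelihood fit with legacy=TRUE, Benjamini-Hochberg adjustment over 24419 genes, calls at 0.05. SE is the absolute log2 fold change over the square root of F, and 95% intervals use the degrees of freedom of the test. CPM uses TMM library sizes. The alternatives were DESeq2 1.42.0, limma 3.58.1, other scalings and filters, a replicate block, each library left out, protein-coding genes only, and genes sharing no sequence. The last had no match of 200 bases, or of 50% of the transcript, by BLAST+ 2.17.0 at 90% identity to another protein-coding gene or pseudogene. Gene models are GENCODE M21, in which 53825 of 54429 symbols were found.

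The members and lists were chosen with earlier results of these data known. The rule for named genes took every member, called genes of the pathway lists (at most 4 a list), Asah1, Psap, Kmt5b and the 5 genes with the profile nearest to Naaa. Marker genes, Sgsh, Hexa, the genes within 250 kb of Naaa and the ratios were named after their values were seen. RefSeq promoter windows matched 8 of the 10 members.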

Additional observations from a re-analysis of the deposited data

How the results depend on the processing

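Under all 16 alternatives Naaa kept a log2 fold change between -0.96 and -0.71, a shift below its replicate SD of 0.18, and Kmt5b kept its direction and did not pass. The 9 other members had 0 calls in 15 alternatives and 1, Mgll, with total counts and no TMM (log2 fold change -0.31). Abhd6 changed sign, to 0.00 with relative log expression size factors, 0.01 with DESeq2, 0.00 with limma voom, 0.01 without GFP replicate 1, and 0.06 when either GFP replicate 2 or Kmt5b shRNA replicate 3 was left out (leave-one-out range -0.09 to 0.06). Abhd12 did so when GFP replicate 1 was left out (0.09) or Kmt5b shRNA replicate 3 (0.06), in a range of -0.08 to 0.09. Other pathway genes called numbered 4, but 8 with no filter, 8 with DESeq2, 2 among genes sharing no sequence, and 2 to 6 with a library left out. Over all genes, 676 were higher and 1390 lower. This became 115 and 57 among genes sharing no sequence, 471 higher and 184 lower among protein-coding genes, so that most calls there were higher, and 592 higher and 750 lower with at least 10 counts in every library, and fewer genes were tested in each. With a library left out, 467 to 822 were higher and 1229 to 1510 lower. With the replicate block, 704 were higher and 1507 lower, 0 of the 9 members passed and the Naaa log2 fold change was -0.85. Same-numbered libraries had correlations of deviations of -0.07, -0.13 and 0.38, so the numbers were not taken to pair the libraries. Cnr2 is limited by few counts, 37 to 128 per library, and by the spread between libraries.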
